A study of Mus musculus with 18 samples.

Results

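The Dlk1-Dio3 cluster is an imprinted domain of mouse chromosome 12, and its members were followed here on all 18 microarrays of a reprogramming study. The members were 60 genes and small RNAs listed by name, without use of their measured values. Of these, 48 had a probe set that the platform annotation ties to 1 gene symbol, among 22180 such genes on the array. They were Begain, a protein gene at the edge of the domain, the protein genes Dlk1 and Dio3, the long RNAs Meg3 and Rian, 5 small nucleolar RNAs (snoRNAs) and 38 microRNAs. The other 12 (Rtl1, Mirg, Mir431, Mir433, Mir127, Mir434, Mir136, Mir134, Mir485, Mir412, Mir369 and Mir410) were annotated only to probe sets with several symbols, so no value is given for them.

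In an imprinted domain the 2 parental copies of a gene are used unequally. In this one, Dlk1, Rtl1 and Dio3 are read from the paternal chromosome, while Meg3, Rian, Mirg, the snoRNAs and most microRNAs are read from the maternal one, in the same direction and largely from long host transcripts. A methylation mark set in the father's germ line, between Dlk1 and Meg3, keeps the maternal RNAs off on the paternal copy. The cluster is known in stem cell work because some mouse induced pluripotent stem cell (iPSC) lines carry very low maternal RNAs, and because ascorbic acid has been described as opposing that loss.

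Each array came from a different sample of cells with the strain background Black6-129X1/SvJ, and no age was given. The iPSC arrays were 1 of iPSCs made from granulocyte-macrophage progenitors (GMPs) by 48 hours of induction, 1 of iPSCs made from fibroblasts by 96 hours of induction, both with OKSM plus AGi, and they are set against 1 array of wild-type embryonic stem cells (ESCs). OKSM is the set of reprogramming factors Oct4, Klf4, Sox2 and Myc, and AGi is ascorbic acid with an inhibitor of the kinase GSK3. The donor cell types were represented by 1 array of GMPs and 1 of embryonic fibroblasts (MEFs) of the reprogrammable mouse without doxycycline, the drug that turns on OKSM. The sample titles do not say that either iPSC line came from the cells on these arrays. The time course used bulk cultures of those fibroblasts expressing OKSM with AGi or OKSM alone, and on each of days 2, 4, 6, 8, 10 and 12 both arms had 1 array. A further array held cells kept by a sort for the surface protein Thy1, a fibroblast marker, after 3 days of OKSM. Each iPSC array stands for 1 line, and nothing says whether the ESC line shares its parents.

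No condition was repeated, so differences between single arrays are given as sizes without a test, and p-values of the time course rest on how much the days differ among themselves, which may be technical. All values are log2 expression values made by the authors, and a difference of 1 is a doubling. Array medians lay between 6.32 and 6.46; precision is limited by how few arrays there are. Defining markers were high on the arrays labelled for them: 12 pluripotent-cell markers averaged 10.77 in GMP-iPSCs, 10.77 in fibroblast-iPSCs and 10.64 in ESCs, against 6.49 in GMPs and 6.18 in MEFs, and 10 myeloid progenitor markers averaged 11.99 in GMPs and 6.75 in MEFs. The 12 fibroblast markers averaged 6.59 in GMPs and 10.27 in MEFs. In bulk samples fewer cells of a type and less RNA per cell cannot be told apart. Which form of a microRNA its probe set reads (the mature form, the hairpin or the host transcript) is not given in the sources used here, and columns such as the RNeasy kit used are known to retain little RNA as short as a mature microRNA.

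The first set of sequences belongs to the 6 microRNAs with the lowest value in GMP-iPSCs relative to ESCs, shown because they carry the largest differences among the small regulatory RNAs. They are mature sequences from RefSeq (GRCm38.p6), read 5′ to 3′, and the capitals mark the seed, bases 2 to 8, which a microRNA uses to pair with its targets. A seed shared with one of the 6 was found in Mir496a alone, which is added for that reason.
mmu-miR-453: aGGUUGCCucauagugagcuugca
mmu-miR-496a-5p: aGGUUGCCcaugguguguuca
mmu-miR-377-3p: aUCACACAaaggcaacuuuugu
mmu-miR-377-5p: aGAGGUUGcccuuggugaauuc
mmu-miR-493-3p: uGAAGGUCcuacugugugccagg
mmu-miR-493-5p: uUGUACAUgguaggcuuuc
mmu-miR-382-3p: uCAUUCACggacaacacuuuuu
mmu-miR-382-5p: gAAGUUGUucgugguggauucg
mmu-miR-544-3p: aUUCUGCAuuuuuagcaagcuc
mmu-miR-544-5p: uCUUGUUAaaaagcagagucu
mmu-miR-487b-5p: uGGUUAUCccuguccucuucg

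The second set belongs to the 5 microRNAs whose value fell with day in the AGi arm, shown because these are the microRNA slopes that passed the test. None of their seeds was shared with another listed member.
mmu-miR-329-3p: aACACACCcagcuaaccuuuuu
mmu-miR-329-5p: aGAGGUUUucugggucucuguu
mmu-miR-341-3p: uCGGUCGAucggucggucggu
mmu-miR-341-5p: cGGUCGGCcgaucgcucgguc
mmu-miR-758-3p: uUUGUGACcugguccacua
mmu-miR-758-5p: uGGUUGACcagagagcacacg
mmu-miR-667-3p: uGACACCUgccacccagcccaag
mmu-miR-667-5p: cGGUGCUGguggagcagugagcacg
mmu-miR-673-3p: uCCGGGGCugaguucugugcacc
mmu-miR-673-5p: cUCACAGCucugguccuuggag

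All 48 listed microRNAs matched the RefSeq table, with 91 mature sequences and 87 distinct seeds. Only 4 seeds were shared, each by 2 member genes: GGUUGCC by Mir453 and Mir496a, AUGUAAC by Mir379 and Mir411, GGUUGUC by Mir410 and Mir494, and UGGAUAU by Mir376b and Mir376c. The cluster's microRNAs therefore differ in seed for the most part, and what the members share is position. In the order of the GRCm38.p6 annotation, all 5 snoRNAs, Mir341 and Mir370 lie within the span of Rian, 11 listed microRNAs within that of Rtl1 (6 of them measured here) and 9 within that of Mirg (6 measured).

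**Figure D1:**
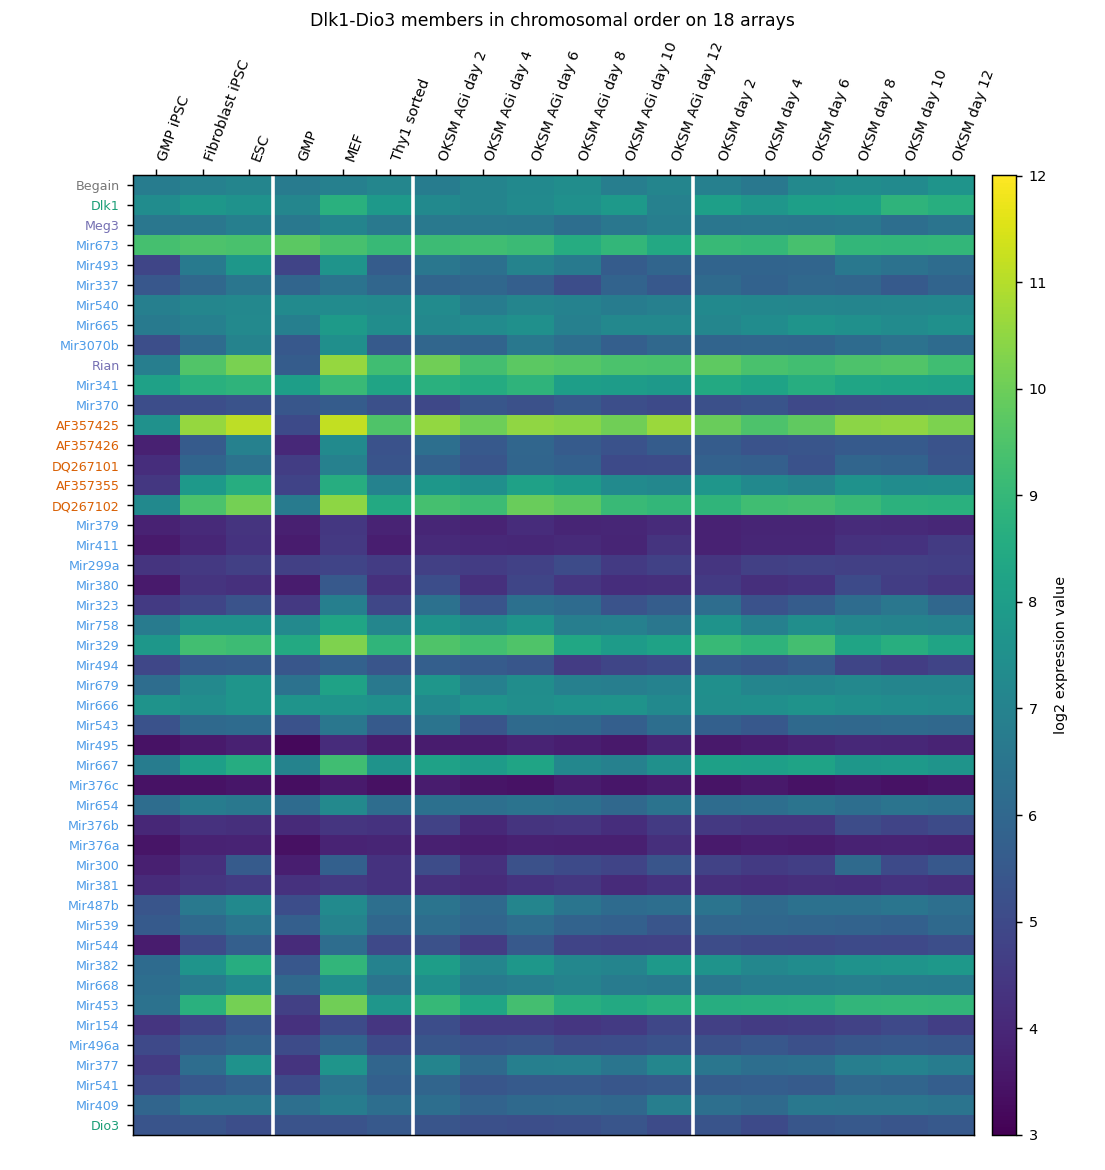
Log2 expression value (colour, 3 to 12) of the 48 measured members, in chromosomal order down the page, on the 18 arrays; symbols are coloured by class (green, paternal protein gene; purple, maternal long RNA; orange, snoRNA; blue, microRNA; grey, flanking gene). Rian and the 5 snoRNAs are darker on the GMP-iPSC and GMP arrays than on the ESC and MEF arrays; colours of different probe sets cannot be compared as amounts.

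Rian, all 5 snoRNAs and 14 of 38 microRNAs read at least 1 log2 lower in GMP-iPSCs than in ESCs. Rian, the long RNA that hosts the snoRNAs, read 6.86 in GMP-iPSCs and 9.56 in fibroblast-iPSCs, against 10.20 in ESCs. The GMP-iPSC array stood far below both others, by −3.34 relative to ESCs (10.11-fold) and by −2.70 relative to fibroblast-iPSCs, while fibroblast-iPSCs differed from ESCs by −0.64 (1.55-fold). Of the 48 members, 20 were lower in GMP-iPSCs than in ESCs by at least 1 log2, where 0.766% of all 22180 genes (170) were. None was higher by as much, where 134 genes were. The median of the members was −0.80, against 0.01 over all genes, and 47 of 48 lay below 0.

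The snoRNAs, small RNAs of a class that guides chemical modification of other RNAs, followed the same order. AF357355 read 4.47 in GMP-iPSCs and 7.88 in fibroblast-iPSCs, against 8.60 in ESCs. AF357425 read 7.54 and 10.58 in these lines, against 11.12 in ESCs. DQ267102 read 7.26 in GMP-iPSCs and 9.44 in fibroblast-iPSCs, against 10.12 in ESCs. In each of these the GMP-iPSC array was lowest and the fibroblast-iPSC array lay within 1 log2 of ESCs. AF357426 read 3.81 in GMP-iPSCs and 5.57 in fibroblast-iPSCs, against 6.95 in ESCs, and was the snoRNA with the larger gap in fibroblast-iPSCs (−1.38). DQ267101 read 4.19 in GMP-iPSCs and 5.90 in fibroblast-iPSCs, against 6.38 in ESCs. A second probe set of DQ267101, of lower mean and not used here, differed much less. It read 4.77 in GMP-iPSCs and 5.02 in ESCs, and 4.81 in GMPs and 5.22 in MEFs. All 5 snoRNAs were lower by at least 1 log2 in GMP-iPSCs than in ESCs, with differences of −2.18 (DQ267101) to −4.12 (AF357355), and 1 of 5 in fibroblast-iPSCs.

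The microRNAs differed unequally. Of 38, 14 were lower in GMP-iPSCs than in ESCs by at least 1 log2 and all 38 lay below 0, with a median of −0.77 and a range of −3.72 to −0.07. Some with small differences already read low in ESCs (Mir376c 3.54, Mir495 3.82 and Mir376a 3.89), where a fall of 1 log2 might not show. Others did not read low there (Mir673 9.40 and Mir666 7.69). Mir453 read 6.40 in GMP-iPSCs and 8.72 in fibroblast-iPSCs, against 10.12 in ESCs. Mir377 read 4.58 in GMP-iPSCs and 6.20 in fibroblast-iPSCs, against 7.59 in ESCs. Both were lowest in GMP-iPSCs and intermediate in fibroblast-iPSCs, where their differences from ESCs were −1.40 and −1.39. Mir493 read 4.87 in GMP-iPSCs and 6.66 in fibroblast-iPSCs, against 7.76 in ESCs. Mir382 read 6.16 in GMP-iPSCs and 7.66 in fibroblast-iPSCs, against 8.60 in ESCs. These 2 kept the same order of the 3 arrays. Mir544 differed by −2.04 and Mir487b by −1.90 between GMP-iPSCs and ESCs. Mir496a, which has the seed of Mir453, differed by −0.89, so the members of that seed pair differed unequally.

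At the 1 log2 mark, Mir668 (−1.03), Mir337 (−1.07) and Mir154 (−1.08) lay just past it and Mir539 (−0.95) and Mir496a just short of it. By position, 3 of the 6 measured microRNAs before Rian, neither of the 2 within it (Mir341 −0.70, Mir370 −0.18) and 11 of the 30 after it were lower by at least 1 log2. The microRNAs with small differences included Mir673 (9.33 in GMP-iPSCs, 9.48 in fibroblast-iPSCs and 9.40 in ESCs) and Mir666 (7.61, 7.44 and 7.69 on the same arrays).

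**Figure D2:**
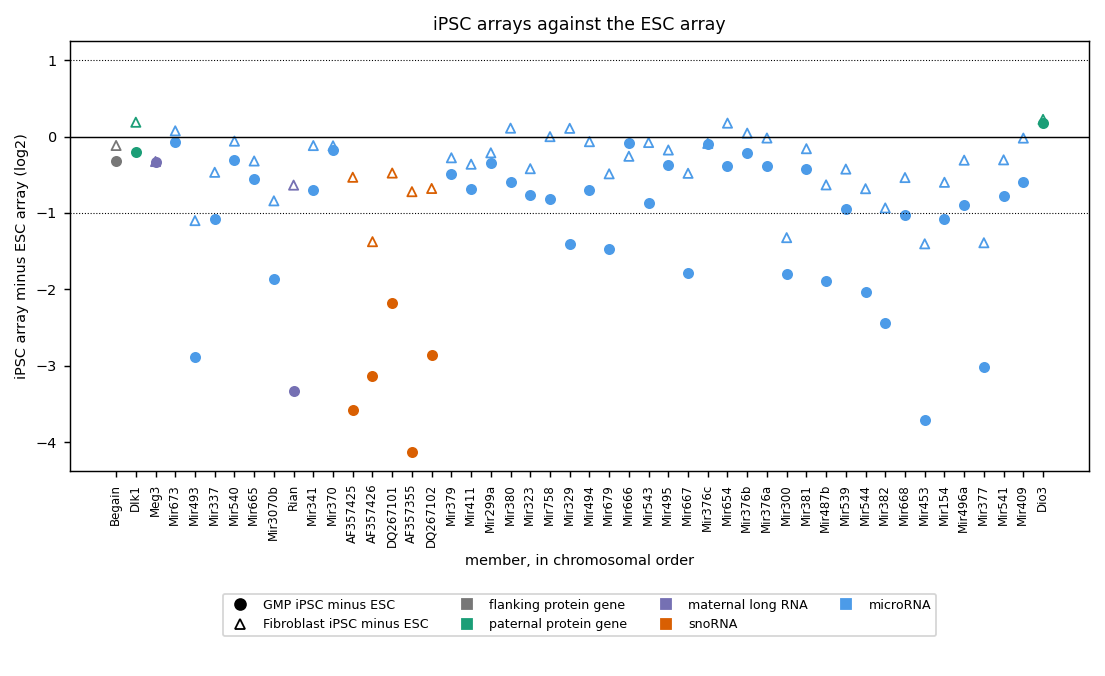
Difference of the GMP-iPSC array (filled circles) and of the fibroblast-iPSC array (open triangles) from the ESC array, in log2, for the 48 measured members in chromosomal order; dotted lines mark 1 log2. The 5 snoRNAs and Rian lie between −2.18 and −4.12 in GMP-iPSCs, while Dlk1 and Dio3 at either end lie near 0 on both arrays.

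The paternal protein genes did not share the difference. Dlk1, a transmembrane relative of the Notch ligands, read 7.38 in GMP-iPSCs and 7.78 in fibroblast-iPSCs, against 7.59 in ESCs. Dio3, the deiodinase that inactivates thyroid hormone, read 5.34 in GMP-iPSCs and 5.39 in fibroblast-iPSCs, against 5.16 in ESCs. Both lay within 0.23 of ESCs on both iPSC arrays. Dio3 read only 5.03 to 5.53 over the 18 arrays, below every array median, so a fall in it might not show. Begain read 6.77 in GMP-iPSCs and 6.97 in fibroblast-iPSCs, against 7.08 in ESCs. Outside the domain, none of 15 measured flanking genes differed by 1 log2 between GMP-iPSCs and ESCs, where 0.604% of all genes were higher and 0.766% lower. That count is near these shares. The differences of the flanking genes ran from −0.16 (Zfp839) to 0.18 (Slc25a29).

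The probe set of Meg3, the first long RNA of the maternal strand, read 6.56 in GMP-iPSCs and 6.56 in fibroblast-iPSCs, against 6.89 in ESCs. It read 6.59 in GMPs and 7.07 in MEFs, and its whole range over the 18 arrays was 0.84, against 4.97 for Rian. Its flat course is a measurement of that probe set, and whether the probe set reads Meg3 was not tested.

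Fibroblast-iPSCs lay nearer to ESCs. In them 5 of 48 members (Mir453, Mir377, AF357426, Mir300 and Mir493) were lower than in ESCs by at least 1 log2, where 1.06% of all genes were, with a median of −0.31 and 41 of 48 below 0. Set against fibroblast-iPSCs directly, GMP-iPSCs had 15 of 48 members lower by at least 1 log2, where 1.28% of all genes were, and a median of −0.57. The comparisons with ESCs share the ESC array. Fibroblast markers also differed between these arrays: the 12 averaged 6.81 in GMP-iPSCs and 8.35 in fibroblast-iPSCs, against 7.51 in ESCs, with 2 of 12 lower by at least 1 log2 in GMP-iPSCs than in ESCs and 6 of 12 higher in fibroblast-iPSCs than in ESCs. Their part in the result was not tested. The 12 pluripotent markers had a median difference of 0.02 between GMP-iPSCs and ESCs. None differed by 1 log2, where 0.604% of all genes were higher and 0.766% lower by as much.

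The donor cells differed in the same members. Rian read 5.61 in GMPs and 10.58 in MEFs, a difference of −4.97 (31.33-fold). AF357425 read 5.01 in GMPs and 11.19 in MEFs, and Mir453 read 4.72 in GMPs and 10.05 in MEFs. These 3 had the largest differences of the cluster between the donor cells. No member was higher in GMPs than in MEFs by at least 1 log2, where 1646 of 22180 genes were. In GMPs 28 of 48 members were lower than in MEFs by as much, where 8.49% of all genes were, with a median of −1.19. All 5 snoRNAs (−2.29 to −6.18), 21 of 38 microRNAs and Dlk1 (7.12 in GMPs and 8.70 in MEFs) were among them.

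The 2 contrasts, GMPs minus MEFs and GMP-iPSCs minus ESCs, share no array. Of the members lower by 1 log2, 18 were common to both, which is 18 of the 20 in GMP-iPSCs and 18 of the 28 in GMPs. The differences of the 48 members correlated across the contrasts with r = 0.92, against r = 0.085 over all genes. Members share host transcripts and are not independent points, so this is a description of these 4 arrays. Only 12 members in GMPs and 14 in GMP-iPSCs reached the array median, against 32 in MEFs and 28 in ESCs. The members also read much alike in ESCs and MEFs (median difference −0.20). Both differences can therefore follow how high a member reads in MEFs and ESCs, and the part of this in r was not tested. Dlk1 (−1.57 between the donor cells, −0.20 between GMP-iPSCs and ESCs) and Mir323 (−2.39 and −0.76) lay off the common line.

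**Figure D3:**
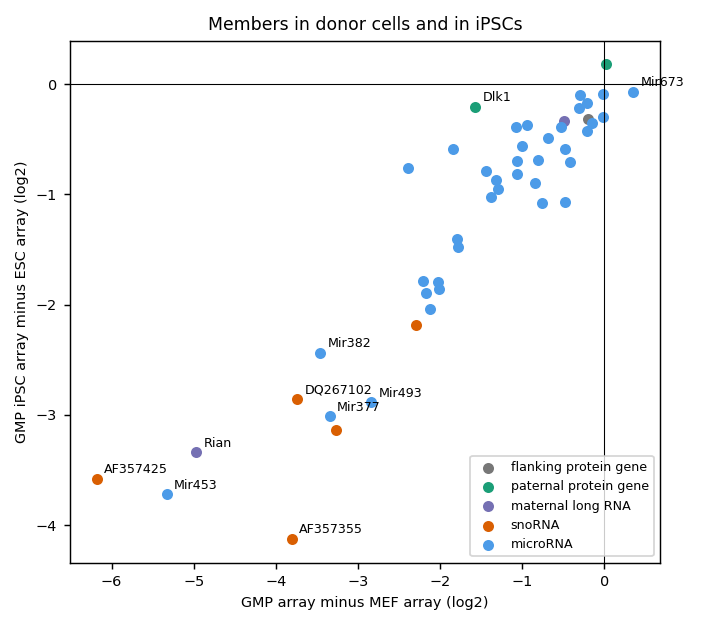
GMP-iPSC array minus ESC array (vertical axis, log2) against GMP array minus MEF array (horizontal axis, log2) for the 48 measured members, coloured by class. Rian, the snoRNAs, Mir453, Mir377 and Mir493 lie far from 0 on both axes, and Dlk1 only on the horizontal one.

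GMP-iPSCs were also set against the array of their donor cell type. In them 3 of 48 members were higher than in GMPs by at least 1 log2 (AF357425 2.53, Mir453 1.68 and Rian 1.25), where 8.5% of all genes were, and none of 48 was lower by as much, where 7.88% of all genes were. The first share is near that of all genes. The median of the members was −0.03. Among the 10 members at least 2 log2 higher in ESCs than in GMPs, the GMP-iPSC array stood between −8.7% and 41.4% of the way from the GMP value to the ESC value, and the fibroblast-iPSC array between 52.5% and 91.3%. Fibroblast-iPSCs were made from fibroblasts, so for them this is a position between the GMP and ESC values and not a distance covered. AF357425 had the highest percentage on both arrays, at 41.4% in GMP-iPSCs and 91.3% in fibroblast-iPSCs. AF357355 was at −8.7% in GMP-iPSCs and 81.0% in fibroblast-iPSCs, and Rian at 27.3% and 86.2% on the same arrays.

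The fibroblast-iPSC and ESC arrays were also set against the MEF array. In fibroblast-iPSCs 14 of 48 members were lower than in MEFs by at least 1 log2, where 7.86% of all genes were, and Rian differed by −1.02. In ESCs 4 of 48 (Mir323 −1.59, Mir380 −1.26, Dlk1 −1.11 and Mir329 −1.10) were lower than in MEFs by as much, where 8.16% of all genes were, a share close to that background. None of the 48 members was higher by 1 log2 in ESCs or in fibroblast-iPSCs than in MEFs, where 1863 and 1616 of 22180 genes were.

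The Thy1-positive cells, sorted on day 3 and labelled as refractory to reprogramming, also read lower than MEFs. Rian read 9.26 in these cells and 10.58 in MEFs, and Mir453 read 7.74 and 10.05 on the same arrays. In them 23 of 48 members were lower than in MEFs by at least 1 log2, where 2.31% of all genes were, with a median of −0.93 and the lowest difference in Mir453 (−2.31). All 5 snoRNAs were among them, with differences of −1.59 to −2.06. Cell type markers differed as well: the 12 fibroblast markers averaged 9.46 in Thy1-positive cells and 10.27 in MEFs, with 3 of 12 lower by at least 1 log2, and the 12 macrophage markers averaged 7.09 and 7.64 on the same arrays, with 4 of 12 lower. Their part in the result was not tested. Rian in these cells still read 3.65 log2 above GMPs.

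In cultures expressing OKSM, Rian read between the GMP and the MEF level. With AGi, Rian had a lowest value of 9.30, a median of 9.55 and a highest of 10.05 over the 6 days, against 9.25, 9.44 and 9.78 with OKSM alone. Every one of these 12 values lay above both the GMP-iPSC and the GMP array and below MEFs, and the arms overlapped. Against the MEF array, the number of members lower by at least 1 log2 was 8, 23, 4, 16, 23 and 20 of 48 on days 2 to 12 with AGi, where 2.9%, 4.73%, 4.84%, 4.22%, 4.42% and 4.77% of all genes were. With OKSM alone it was 15, 22, 18, 13, 16 and 16 of 48, where 2.23%, 2.6%, 2.97%, 2.03%, 2.3% and 2.39% of all genes were. No member was higher than in MEFs by 1 log2 on any of the 12 arrays, where 660 to 1694 of 22180 genes were. For 36 of the 48 members the range over the 6 single arrays was wider than that over the 12 arrays of the time course.

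The test of AGi asked whether the additives moved the members across the 6 days, with the day as a block. Of the 48 members, 24 reached the median of their array on at least 3 of the 12 arrays and were tested among 13865 genes; the filter did not use the arm. The 24 were Begain, Dlk1, Meg3, Rian, AF357425, AF357355, DQ267102 and 17 microRNAs. Of them 1 was higher with AGi (DQ267102), where 19.6% of all genes tested were, and 1 was lower (Dlk1), where 19.3% were. The members' effects had a median of −0.01, against 0.00 over all genes, and 12 of 24 were above 0.

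Dlk1 was lower with AGi on all 6 days. With AGi it read 7.27, 7.05, 7.30, 7.53, 7.83 and 6.94 on days 2, 4, 6, 8, 10 and 12, against 8.10, 7.71, 8.08, 8.11, 8.85 and 8.64 with OKSM alone. The arms overlapped by a single pair of values, the AGi value of day 10 lying above the OKSM value of day 4, and on each day the AGi array was the lower one. The difference was −0.93 ± 0.14 on the log2 scale (SE from limma over 6 days; adjusted p = 0.0026). It ran from −0.58 on day 8 to −1.70 on day 12, and the late days did not differ from the early ones beyond their spread (−0.34 ± 0.26, adjusted p = 0.517, limma). In the same arrays 10 of 12 fibroblast markers were lower with AGi (limma, median −0.87), and their mean level ran from 7.73 to 9.43 with AGi and from 8.84 to 10.37 with OKSM alone. Of 12 pluripotent markers 7 were higher with AGi, and of 10 tested macrophage markers 1 was higher and 5 were lower. MEFs had a higher Dlk1 than ESCs and GMPs, and the part of these cell types in the Dlk1 result was not tested.

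DQ267102 had a lowest value of 8.96, a median of 9.26 and a highest of 9.94 with AGi, against 8.73, 8.99 and 9.32 with OKSM alone. It was higher with AGi on 5 of 6 days, by 0.37 ± 0.10 on the log2 scale (SE from limma over 6 days; adjusted p = 0.0236), and the arms overlapped. All 18 hybridisation control probe sets, which come from no cell, also read higher with AGi, by 0.17 on average and 0.26 at most. Tested against the largest of these control differences, DQ267102 did not pass (adjusted p = 0.613, limma), whereas Dlk1 did (adjusted p = 0.0175). Without the day as a replicate block DQ267102 did not pass either (adjusted p = 0.134, limma).

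For the other members no effect of AGi over all days passed this test. With the mean of the hybridisation controls subtracted from each array, 5 of 24 members rather than 1 were lower with AGi and none was higher (limma). The 5 were Dlk1, Mir409, Mir540, Mir665 and Mir667. Of all 13865 genes tested, 5279 were then lower and 1055 higher. The median effect was −0.17 over all genes and −0.17 over the members, so the subtraction lowered genes in general. Rian differed by 0.15 ± 0.09 (SE from limma; adjusted p = 0.198) and was higher on 4 of 6 days. AF357425 differed by 0.29 ± 0.15 (adjusted p = 0.163, limma) and AF357355 by 0.23 ± 0.17 (adjusted p = 0.311). Mir453 differed by −0.06 ± 0.16 (adjusted p = 0.789, limma), with 8.28 to 9.31 in the AGi arm and 8.61 to 8.97 in the OKSM arm. Among the members below the filter, AF357426 differed by 0.25 ± 0.12 and Dio3 by −0.14 ± 0.09, and neither passed in the fit without a filter (adjusted p = 0.184 and 0.333, limma).

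**Figure D4:**
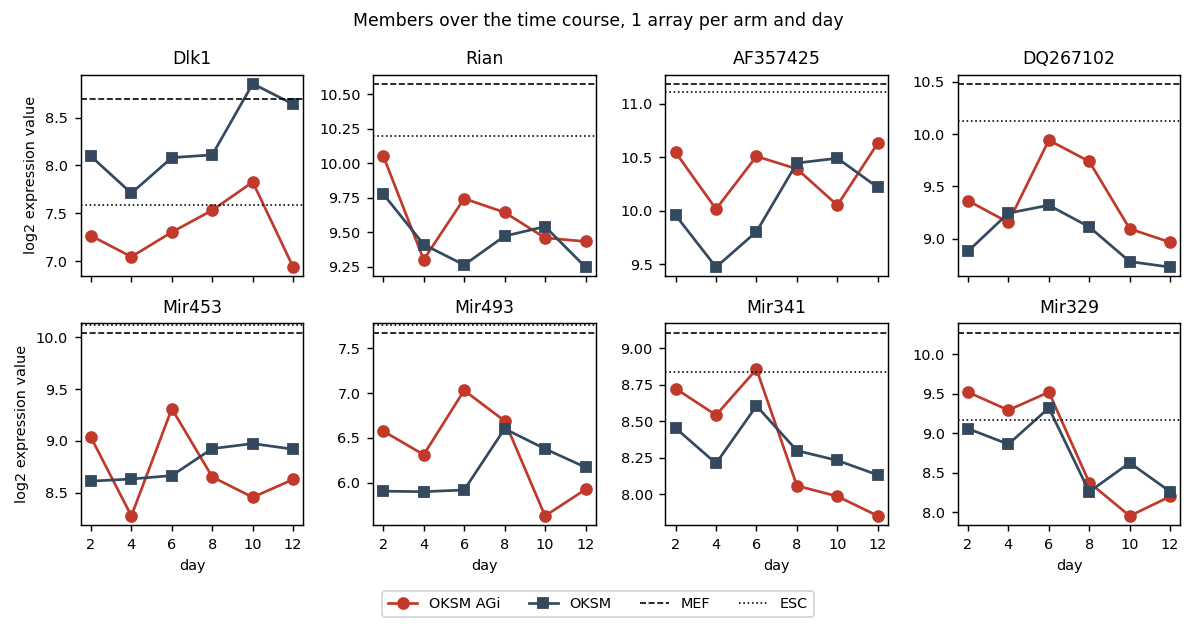
Log2 expression value (vertical axis, separate scale in each panel, not starting at 0) by day for 8 members, with AGi (red circles) and with OKSM alone (dark squares), 1 array per point; dashed and dotted lines mark the single MEF and ESC arrays. Dlk1 is lower with AGi on each of the 6 days, and Mir341 is higher with AGi on days 2, 4 and 6 and lower on days 8, 10 and 12.

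The number of members higher with AGi varied from day to day. On days 2, 4 and 6, 41, 20 and 34 of the 48 members were higher with AGi; on days 8, 10 and 12, 18, 9 and 18 were. The median of the members was 0.15, −0.05 and 0.16 on the early days and −0.18, −0.31 and −0.11 on the late ones, while the median over all genes stayed between −0.02 and 0.03. Of the 24 tested members, 4 had a late effect above the early one, and the median difference was −0.35, against 0.01 over all genes. These counts describe 6 pairs of arrays, and members that share a host transcript are not independent points.

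Mir341, which lies within Rian, was the 1 member of 24 whose late effect differed from its early one in the test, where 1.8% of all genes tested were lower in this way. With AGi it read 8.72, 8.54, 8.86, 8.06, 7.99 and 7.85 on days 2 to 12, against 8.45, 8.21, 8.61, 8.30, 8.23 and 8.13 with OKSM alone. AGi was the higher arm on each early day, by 0.25 to 0.33, and the lower arm on each late day, by −0.24 to −0.28. The late effect minus the early one was −0.54 ± 0.10 on the log2 scale (SE from limma, 3 days each; adjusted p = 0.0474). The call was lost without any 1 of the 6 days (−0.52 to −0.56) and under 4 other settings, although the value stayed between −0.50 and −0.56. In the same test 6 of 12 pluripotent markers had a higher late effect and 4 of 10 macrophage markers a lower one, and their part in the result was not tested.

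Mir493, at the Meg3 end of the microRNAs, had the largest such difference in value. With AGi it read 6.58, 6.31, 7.03, 6.69, 5.63 and 5.93 on days 2 to 12, against 5.91, 5.90, 5.92, 6.60, 6.38 and 6.17 with OKSM alone. AGi was higher up to day 8 and lower on days 10 and 12. The late minus early difference was −1.03 ± 0.25 (adjusted p = 0.0832, limma) and did not pass.

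Fitted to the early days alone, 2 of 24 members were higher with AGi, AF357425 by 0.61 ± 0.08 (adjusted p = 0.0215, limma, 3 days) and Mir493 by 0.73 ± 0.14 (adjusted p = 0.0363), where 5.76% of all genes were, and Dlk1 was the 1 lower, where 7.46% were. Fitted to the late days alone, DQ267102 was the 1 higher, where 16.1% of all genes were, and Dlk1, Mir453 and Mir667 were the 3 lower, where 16.9% were. For AF357425 the late minus early difference was −0.64 ± 0.21 (adjusted p = 0.157, limma) and did not pass.

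**Figure D5:**
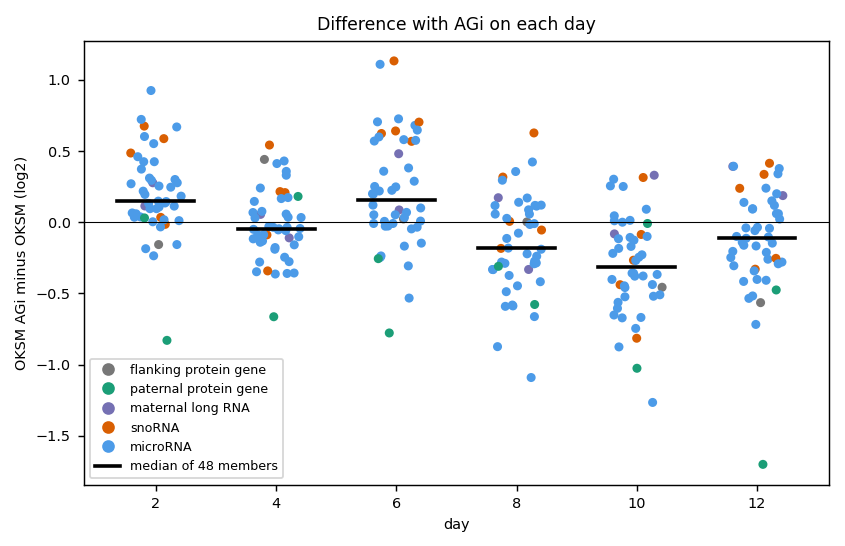
Difference between the AGi array and the OKSM array of each day (log2) for the 48 measured members, coloured by class and spread sideways at random; black bars are medians. The medians are 0.15, −0.05, 0.16, −0.18, −0.31 and −0.11 on days 2 to 12, and the lowest point is Dlk1 on day 12 (−1.70).

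Change with day was tested as a slope within each arm. With AGi, 5 of 24 members fell with day, where 8.23% of all genes tested did, and none rose, where 10.5% did. All 5 were microRNAs: Mir329 by −0.17 ± 0.04 per day on the log2 scale (SE from limma; adjusted p = 0.0109), Mir341 by −0.10 ± 0.02 (adjusted p = 0.0136), Mir758 by −0.10 ± 0.03 (adjusted p = 0.0229), Mir673 by −0.07 ± 0.02 (adjusted p = 0.0478) and Mir667 by −0.10 ± 0.03 (adjusted p = 0.0498). Their mature sequences are those of the second set above. Without day 12 none of the 5 passed, and the slopes then ran from −0.05 (Mir673) to −0.20 (Mir329). Of the 5, only Mir329 and Mir341 passed when any other single day was left out. In the fit without a filter, Mir673 (adjusted p = 0.0565, limma) and Mir667 (adjusted p = 0.0602) did not pass. Mir539, which the filter had removed, did pass there (−0.07 ± 0.02 per day, adjusted p = 0.0211, limma).

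Mir329 read 9.52, 9.29, 9.52, 8.38, 7.96 and 8.20 with AGi on days 2 to 12, against 9.06, 8.86, 9.32, 8.26, 8.63 and 8.26 with OKSM alone. In both arms the values of days 8 to 12 lay below those of days 2 to 6. With OKSM alone no member passed a slope test in either direction, where 8.99% of all genes did (limma; 3 of 24 had an unadjusted p below 0.05). No member's slope differed between the arms, where 3.06% of all genes did (limma; 2 of 24 had an unadjusted p below 0.05), so a slope that passed in the AGi arm alone is not shown to differ from the other arm. Rian had a slope of −0.04 ± 0.02 per day with AGi (adjusted p = 0.283, limma), which did not pass.

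The members shared a pattern across arrays to unequal degrees. Over the 18 arrays, the genes most like Rian by Pearson's r among 22179 were AF357425 (r = 0.97, Spearman's rho = 0.77), Mir453 (0.96, rho = 0.74) and AF357355 (0.95, rho = 0.89), and 8 of the 10 most alike were members. Of the 47 other members, 30 had r above 0.5, against 6.33% of all genes. Dio3 (−0.09), Mir370 (−0.01), Mir666 (−0.24) and Mir673 (−0.40) had r below 0. The 8 genes outside the cluster most like Rian were Bgn (0.90), Slc1a4, Timp1, Gpx8, Lox, Zcchc14, Inppl1 and Gna11 (0.84). These values rest on the GMP and GMP-iPSC arrays, which share the low end: without them r of Bgn was −0.14, while 17 of the 50 genes most like Rian were members, against 9 of 50 with them, and AF357426 (0.95), Mir679 (0.92) and AF357355 (0.87) led.

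Genes known to act on imprints and on microRNAs were measured on the same arrays. Of 18 imprint regulators, none differed by 1 log2 between GMP-iPSCs and ESCs, where 0.604% of all genes were higher and 0.766% lower. That count is near these shares. The 18 ran from −0.90 in Dppa3, a protein that guards methylation in the early embryo, to 0.67 in the 5-methylcytosine oxidase Tet3. In fibroblast-iPSCs 3 of 18 were lower than in ESCs by at least 1 log2, where 1.06% of all genes were. The 3 were Dppa3 (6.45 in fibroblast-iPSCs, 7.93 in ESCs), Aff3 (6.69 and 7.79) and Dnmt3a (8.504 and 9.543). With AGi 6 of 18 were higher and 3 lower over the 6 days (limma), where 19.6% of all genes tested were higher and 19.3% lower, among them Tet1 (1.005 ± 0.268, adjusted p = 0.0204), another such oxidase, Aff3 (−1.20 ± 0.11, adjusted p = 0.0006) and the methyltransferase gene Dnmt3a (−0.37 ± 0.06, adjusted p = 0.0037). Of 8 microRNA processing genes, none differed by 1 log2 between GMP-iPSCs and ESCs, again near the shares of all genes. With AGi 2 were higher and 2 lower, where 19.6% and 19.3% of all genes tested were. Drosha, the nuclear enzyme that cuts hairpins from host transcripts, was among the higher ones (0.46 ± 0.06, adjusted p = 0.0016, limma).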

How the data were processed

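Total RNA was hybridised to Affymetrix mouse gene arrays. The authors made 1 log2 value for each probe set and array with RMA in Affymetrix Expression Console, per the submitters' processing notes, and deposited these. Versions, settings and build: not given in the sources used here. RMA summaries carry no detection call. Its quantile normalization draws the arrays toward one distribution, so changes shared by most genes can be hidden. The deposited values were close to one distribution but not on it, with array medians of 6.32 to 6.46.

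Of 41345 probe sets on 18 arrays, 23521 had 1 symbol in the platform annotation, updated through the RefSeq table of GRCm38.p6, which also gave neighbour order and mature sequences. For a gene with several, the probe set of highest mean was taken, which left 22180 genes; 5 members had 2. No coordinates are given, since the files name no build.

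The time course was fitted over all genes with limma 3.58.1 in R 4.3.3 (lmFit, eBayes, Benjamini-Hochberg, threshold 0.05). The AGi effect, and its late minus early difference, had the day as a block; slopes had arm, day and their product. Days pair the arms by label only, since nothing says that arrays of a day shared a culture. Single arrays were compared by size. The alternatives changed the filter, the choice of probe set, the normalization, the variance model, the use of days and the fold. Named microRNAs were the 10 with the highest mean, the 6 lowest in GMP-iPSCs relative to ESCs and those called; other values named were chosen after they were seen. The fits were tested on simulated arrays. Members and lists were chosen with earlier results of these data known. Figures were drawn with matplotlib 3.10.9.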

Additional observations from a re-analysis of the deposited data

Results flagged for a closer look

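In Mir341, the effect of AGi on days 8 to 12 minus that on days 2 to 6 was −0.54 on the log2 scale, a difference between early and late days that passed the test (limma, adjusted p = 0.0474). Among 48 groups of 6 arrays (24 named members in 2 arms), 4 held 1 array that stood apart from the other 5, and chance alone marks about 1 in 20 such groups. All 4 were in the arm with OKSM alone: Meg3 on day 10 (6.24), Dio3 on day 4 (5.03), Mir673 on day 6 (9.37) and Mir679 on day 2 (7.50). They fell on 4 different days.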

How the results depend on the processing

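The call of Dlk1 held under every alternative run, with a difference of −0.775 to −0.9998 when a day was left out. The call of DQ267102 did not (0.31 to 0.46 when a day was left out). It was lost without day 2, day 6, day 8 or day 10, and in the fit to days 2 to 6. It was also lost without the day as a replicate block, against the largest control difference and with the control mean subtracted. Counted over all members tested, those higher with AGi numbered 0 to 1 without a day and 0 under each of the last 3 settings. On days 2 to 6 they numbered 2, AF357425 and Mir493. Members lower numbered 1 to 2 without a day, 5 with the control mean subtracted (5279 of all 13865 genes tested) and 3 on days 8 to 12 (16.9% of all genes). Mir341 alone passed late minus early: 0 members did without a filter (adjusted p = 0.0544), with the filter on the mean (0.0501), normalized again (0.0662) or with trend and robust variances (0.057), and 0 to 0 without a day (limma). Members falling with day under AGi numbered 0 to 5 without a day: 0 with day 12 left out, 2 with day 8, and 3 with day 2 or with day 10. With OKSM alone and no filter, 1 rose (Mir411). At a fold of 2 log2, 11 of 48 members were lower in GMP-iPSCs than in ESCs, where 20 of 22180 genes were. In fibroblast-iPSCs against ESCs 0 members were lower, where 11 genes were. In GMP-iPSCs against fibroblast-iPSCs 5 members were lower, where 78 genes were. Against MEFs, 1 member was lower in fibroblast-iPSCs (404 genes), 0 in ESCs (612), 16 in GMPs (856) and 4 in Thy1-positive cells (102). In GMP-iPSCs 1 member was higher than in GMPs, where 704 genes were. Fewer pass a wider fold by construction. Normalized again, 19 of 48 members rather than 14 were lower by at least 1 log2 in fibroblast-iPSCs than in MEFs. Of all 22180 genes, 1883 rather than 1743 were. Without the GMP and GMP-iPSC arrays, an alternative chosen after seeing the data, 17 of the 50 genes most like Rian were members, and r turned below 0 for Bgn (−0.139), Slc1a4 (−0.025), Gpx8 (−0.179) and Zcchc14 (−0.235). With the mean of both its probe sets, DQ267101 lay within 1 log2 in 3 contrasts (−0.64 to −0.96). The cause of the other changes was not tested. Arrays without repeats give no error for a single difference, and values of 3 to 4 lie at the low end of the scale, where differences are compressed.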

Other observations

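Imprinted genes of other domains did not share the difference of the Dlk1-Dio3 members. Of 30 measured, 2 exceeded their ESC value by 1 log2 or more in GMP-iPSCs, where 0.604% of all 22180 genes did. Another 1 fell short of its ESC value by as much, where 0.766% did, and the median of the 30 was −0.06. The gene with the largest difference was Mest, a paternally expressed gene of another chromosome, at 4.33 in GMP-iPSCs minus ESCs and 3.53 in fibroblast-iPSCs minus ESCs. With AGi over the 6 days, 1 of 27 tested was higher and 8 were lower (limma), where 19.6% of all genes tested were higher and 19.3% lower, among them the growth factor gene Igf2 (−2.56 ± 0.32, adjusted p = 0.0016), Mest (−1.83 ± 0.22, adjusted p = 0.0013) and Ndn (−0.83 ± 0.08, adjusted p = 0.0008), and Peg10 was the higher one (1.44 ± 0.30, adjusted p = 0.0078).

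Among genes flanking the domain, 3 of 14 tested were higher with AGi, a share near the 19.6% of all genes tested, and none was lower, against 19.3% (limma). The 3 were Cinp (0.48 ± 0.09, adjusted p = 0.0065), the chaperone gene Hsp90aa1 (0.46 ± 0.10, adjusted p = 0.0084) and Wdr25 (0.17 ± 0.06, adjusted p = 0.0431). The last lies within the range of the hybridisation control differences.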
